A study of Mus musculus with 2 samples.

Results

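The 7 genes of the major histocompatibility complex (MHC) class II pathway, Cd74, H2-Aa, H2-Ab1, H2-Eb1, H2-DMa, H2-DMb1 and Ciita, were followed across the cells of injured mouse kidneys. They were taken by symbol from the feature lists, and all 7 were found among 31058 features. The tissue was whole kidney of female C57Bl/6 mice aged 9 weeks with the genotype Pax8.rtTA;TetO.Cre;R26.FUCCI2aR, which combines a doxycycline-dependent Cre driven in tubule epithelium and a fluorescent cell cycle reporter. All kidneys had rhabdomyolysis, muscle breakdown that injures the kidney, and received either CA3, a compound that inhibits the transcriptional coactivator YAP1, or vehicle. How many animals each library came from, at which dose and time after injury, and whether doxycycline was given is not stated in the sources used here.

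Each group was 1 library of 10x Genomics 3′ transcripts, counted as unique molecular identifiers (UMIs), so no test between the groups was possible. The CA3 library held 1724 cell barcodes and 17013222 UMIs, and the vehicle library 1967 barcodes and 19592239 UMIs. After filtering, 1491 CA3 cells and 1766 vehicle cells were kept, with medians of 7571 and 7334.5 UMIs, and 1 kept barcode occurred in both libraries. Intervals are 95% intervals of counting error only. A gene is called higher or lower where the ratio of CA3 to vehicle passed 1.5 times in either direction, which is a rule of size and not a test. Levels are counts per 1000000 UMIs after genes of the mitochondrial genome are set aside (CPM). They are not scaled by transcript length, so levels of different genes are not ranked.

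MHC class II molecules display peptides from proteins taken up by a cell to CD4 T cells. H2-Aa encodes an alpha chain, and H2-Ab1 and H2-Eb1 encode beta chains. An alpha and a beta chain assemble in the endoplasmic reticulum with the invariant chain Cd74. Cd74 blocks the groove until proteases such as cathepsin S (Ctss) cut it. H2-DM (H2-DMa with H2-DMb1) then exchanges the remaining fragment for peptide. RNA counts do not show which chains pair or whether a chain, such as that of H2-Eb1, forms a class II molecule in these mice. Ciita is the coactivator that switches these genes on, in dendritic cells and B cells at all times and in many other cells after interferon gamma. It joins RFX, CREB and NF-Y proteins on the X and Y boxes of their promoters.

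Of the 7 genes, 5 lie within 197 kb of chromosome 17 (34119541 to 34316674, mm10, GENCODE vM21 annotation): H2-DMa, H2-DMb1, H2-Ab1, H2-Aa and H2-Eb1. Ciita lies on chromosome 16 (10480059 to 10528418, plus strand). H2-Eb1 overlaps the antisense gene Gm20513, H2-DMa overlaps Brd2 and Ciita overlaps Dexi, each on the opposite strand. In the last 500 bases of the transcripts, 25.3% of the 31-base words of H2-DMb1 also occur in H2-DMb2, so counts of H2-DMb1 are uncertain to that extent. H2-Ab1 shared 0.753% of its words with H2-Eb1, Ciita shared 0.426% with other genes, and the other 4 genes shared none.

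The promoters of H2-Aa and H2-Eb1 are shown because these 2 genes were over 1.5 times higher in CA3 proximal tubule-like cells, and to show the letters of the boxes through which Ciita acts. Entries of 4 of the 7 genes, H2-DMa, H2-DMb1, H2-Aa and H2-Eb1, were searched from the RefSeq promoter set (GRCm38.p6). Promoters of the remaining genes were not searched, and whether the set holds them is not reported here. The 120 bases before each start are given 5′ to 3′ on the strand of the gene, with matches to GATTGG (Y box), AGNAAC (X1 box core) and TGACG (X2 box core) on that strand in capitals.
H2-Aa, chr17:34287824-34287943, minus strand: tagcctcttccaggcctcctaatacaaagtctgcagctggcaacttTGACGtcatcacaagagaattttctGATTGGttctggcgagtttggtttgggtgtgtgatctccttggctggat
H2-Eb1, chr17:34305747-34305866, plus strand: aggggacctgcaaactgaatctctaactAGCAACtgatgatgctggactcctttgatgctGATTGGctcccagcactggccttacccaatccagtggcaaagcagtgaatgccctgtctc
GATTGG began 49 bases before the start of H2-Aa and 60 bases before that of H2-Eb1. The 4 genes searched had 5 promoter entries, 2 of them for H2-DMa. Searched on both strands over 250 bases before the start, GATTGG occurred in 4 of these 5 entries and in 14.6% of all 32851 promoters. AGNAAC occurred in 2 of 5 entries and in 42.3% of all promoters, and TGACG in 1 of 5 and in 17.8%. ATTGG, which lies inside GATTGG, occurred in 4 of 5 and 33.8%, and AGCAAC, 1 form of AGNAAC, in 1 of 5 and 12.2%. On the opposite strand, TGACG in H2-Aa matched again at an overlapping position, and H2-Eb1 held a second GATTGG, printed as ccaatc in lower case, that began 35 bases before the start. These letter matches are descriptions, not measured binding.

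Cells were clustered with the 7 genes and the other pathway genes left out, which gave 20 clusters and 9 classes named from their markers. The mononuclear phagocyte-like class held 42 CA3 cells and 37 vehicle cells, of which 41 and 37 had at least 3 UMIs of the 12 phagocyte markers. There were 17 CA3 and 5 vehicle B cell-like cells, 96 and 51 T or NK cell-like cells, and 1156 and 1429 proximal tubule-like cells. Smaller tubule classes were thick ascending limb-like (48 CA3 and 90 vehicle cells), distal nephron-like (69 and 84) and intercalated-like (18 and 15), and 3 CA3 and 6 vehicle cells were podocyte-like. The endothelial-like cluster held 42 CA3 and 49 vehicle cells. Of these, 4 CA3 and 10 vehicle cells had fewer than 10 endothelial marker UMIs, with medians of 0 and 0.5, and they are given apart, a split chosen after their values were seen. Endothelial-like below means the other 38 CA3 and 39 vehicle cells.

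Phagocyte-like cells held most of the class II pathway RNA in both libraries, 77.8% of the 20389 UMIs of the 7 genes in CA3 and 81.1% of 16452 in vehicle. B cell-like cells held 8.30% in CA3 and 3.59% in vehicle. Proximal tubule-like cells, at a far lower level per cell but in far larger number, held 10.4% and 10.8%. Summed over all kept cells, the 7 genes reached 1662 CPM in CA3 and 1139 CPM in vehicle, a ratio of 1.46 (1.43 to 1.49). The phagocyte-like class also took a larger share of all UMIs in CA3, 3.52% against 2.23% in vehicle, as did the B cell-like class, 0.568% against 0.168%. How far those shares set the total was not tested.

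**Figure D1:**
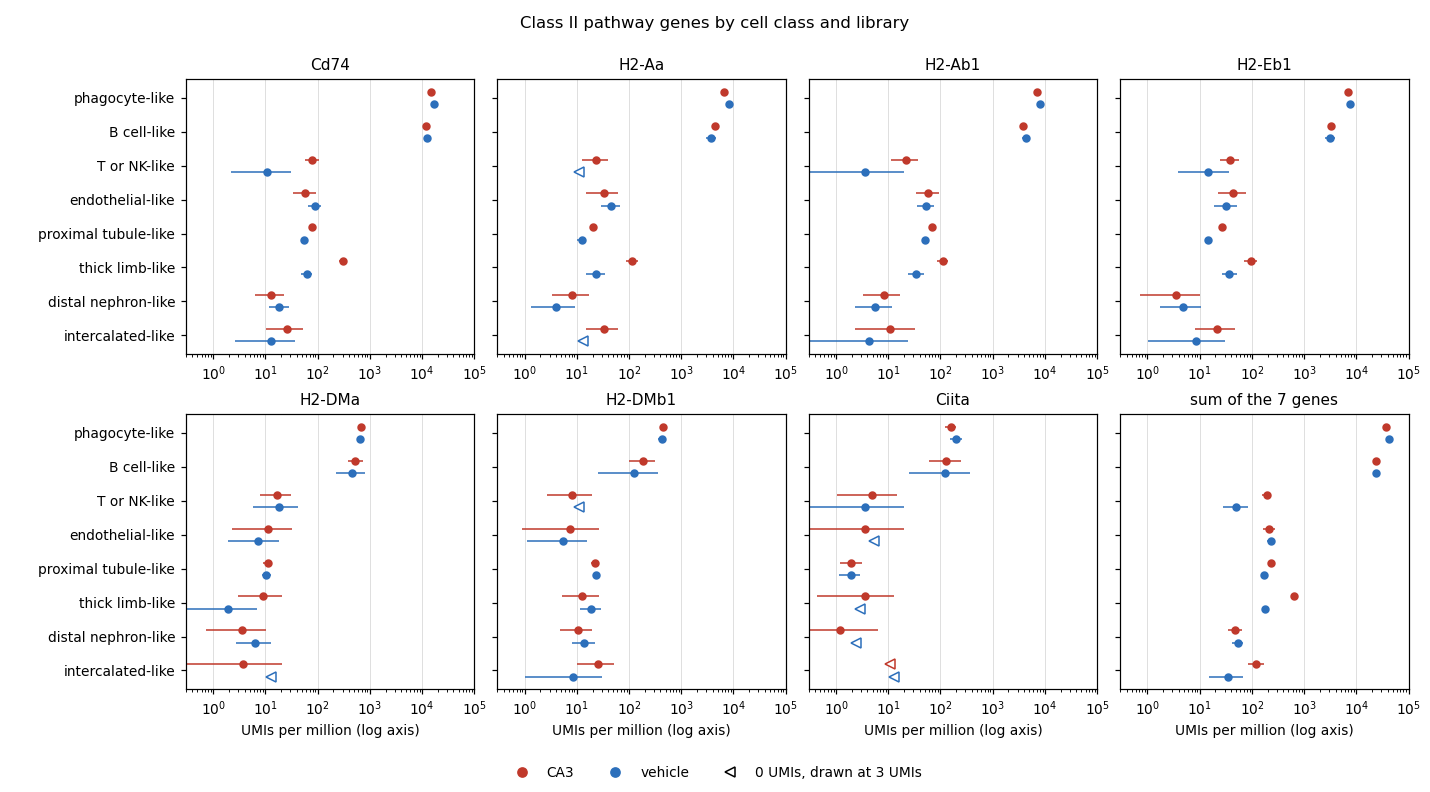
Level of each of the 7 genes and of their sum (CPM, log axis) by cell class, with CA3 points above vehicle points and bars for 95% Poisson intervals; open triangles mark 0 UMIs, drawn at the level of 3 UMIs. Phagocyte-like cells (36759.6 CPM in CA3, 41451 in vehicle) and B cell-like cells (24271 and 24277) lie far to the right of all kidney cell classes for the sum.

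In phagocyte-like cells the 7 genes did not differ between the libraries by more than 1.5 times. Cd74, the invariant chain (chromosome 18, 60803848 to 60812652, plus strand), stood at 15069.5 CPM in CA3 and 16694 CPM in vehicle, a ratio of 0.903 (0.871 to 0.936). H2-Aa, an alpha chain gene, had 6451 CPM in CA3 and 8041 CPM in vehicle, the lowest ratio of the chain genes at 0.802 (0.760 to 0.847). All 4 of the abundant genes were thus slightly lower in CA3, with H2-Ab1 at 7061 and 7957 CPM and H2-Eb1 at 6906 and 7491 CPM. The peptide exchange genes were near equal, H2-DMa at 663 CPM in CA3 and 649 CPM in vehicle and H2-DMb1 at 452 and 419 CPM. Ciita, the switch of the pathway, was counted in 18 of 42 CA3 cells and 21 of 37 vehicle cells, at 158 and 199 CPM from 68 and 64 UMIs, and its ratio of 0.793 had an interval that included 1 (0.555 to 1.13). None of the 7 passed 1.5 times, where 26.0% of the 5093 genes measured in this class did so in either direction. The median log2 ratio was -0.15 over the 7 genes and -0.03 over all genes.

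Levels differed far more between phagocyte-like cells than between the libraries. In single cells the 7 genes ranged from 0 to 136777 CPM in CA3, with a median of 48383, and from 0 to 102920 CPM in vehicle, with a median of 47475. Most cells were either high or very low. In CA3 23 of 42 cells were above 10000 CPM and 12 below 1000, and in vehicle 25 of 37 were above and 10 below. Cells with at least 3 UMIs of neutrophil genes, 8 in CA3 and 3 in vehicle, had 1168 and 280 CPM. Without them the class stood at 44079 CPM in CA3 and 44383 CPM in vehicle, and the ratio of the sum was 0.993, against 0.887 (0.867 to 0.908) in the whole class. Cells with at least 3 UMIs of the complement C1q genes, which mark resident macrophages, had 49235 CPM in 16 CA3 cells and 50683 CPM in 14 vehicle cells. Cells with at least 3 UMIs of dendritic cell genes had 39067 CPM in 21 CA3 cells and 44107 CPM in 18 vehicle cells. High levels were thus found beside markers of either kind.

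Every B cell-like cell carried class II pathway RNA. The sum was 24271 CPM in CA3 and 24277 CPM in vehicle, a ratio of 1.0 (0.910 to 1.10), and single cells ran from 8696 to 36603 CPM in CA3 and from 15002 to 33822 CPM in vehicle. Cd74 was at 11992 and 12385 CPM, H2-Aa at 4418 and 3703, H2-Ab1 at 3744 and 4362, and H2-Eb1 at 3271 and 3127. B cell-like cells thus had no cells near 0, unlike phagocyte-like cells. None of the 5 genes with enough UMIs passed 1.5 times, against 43.3% of 651 genes in either direction. H2-DMb1 (13 UMIs in CA3, 3 in vehicle) and Ciita (9 and 3 UMIs) were too thinly counted to compare. The class is small, and its ratio rests on how the cells are chosen: it was 3.07 at resolution 2 and 3.59 with cells taken by markers.

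**Figure D2:**
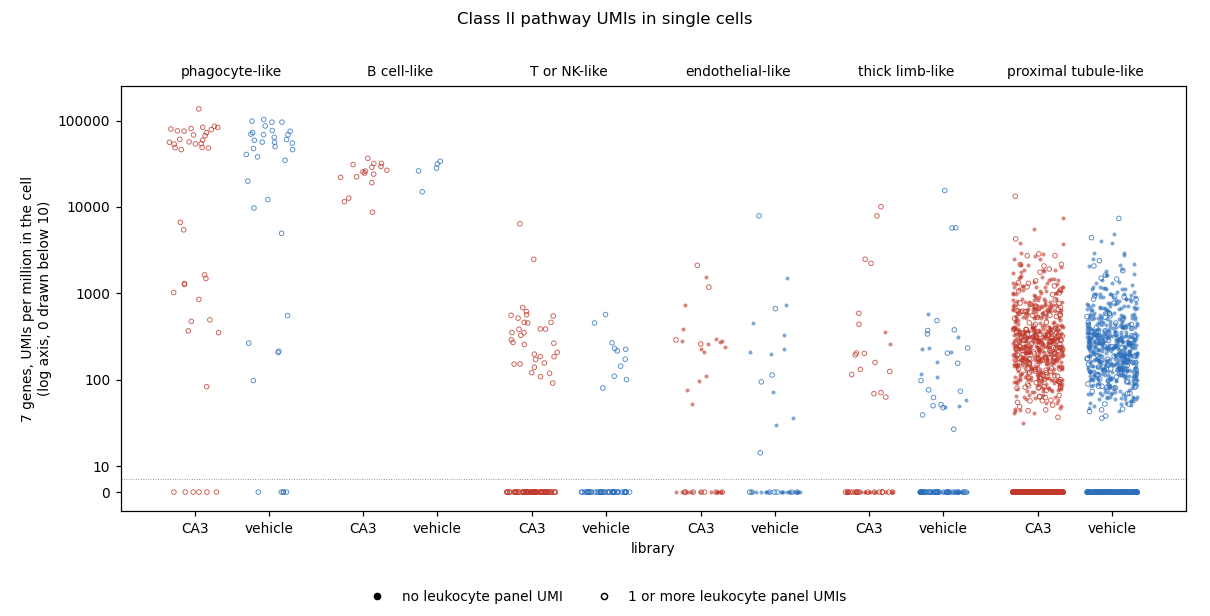
CPM of the 7 genes in each cell (log axis, cells at 0 drawn below 10), CA3 left of vehicle in each class; open points are cells with 1 or more UMIs of a 19-gene leukocyte panel. Phagocyte-like cells split into high and low cells, B cell-like cells are all high, and proximal tubule-like cells reach high levels in cells of both panel states.

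The proportions of the genes in phagocyte-like cells were alike in both libraries and give a scale for the other classes. H2-Ab1 had 0.469 UMIs per Cd74 UMI in CA3 phagocyte-like cells (0.449 to 0.489) and 0.477 in vehicle (0.455 to 0.4997). H2-DMb1 had 0.0300 and 0.0251 UMIs per Cd74 UMI. B cell-like cells had less H2-Ab1 per Cd74 UMI, 0.312 in CA3 and 0.352 in vehicle. Over 12 class and library points with at least 20 cells, the genes whose log2 level was most like that of Cd74 were Cd14, Tgfbi, Fn1, Lst1, C1qb, Trf, Bach1 and C1qa, with Pearson correlations of 0.953 to 0.972. The correlation with Cd74 was 0.989 to 0.993 for the 3 chain genes, 0.942 for Ciita, 0.915 for H2-DMa and 0.902 for H2-DMb1. Points of 1 library share its depth and its free RNA, and the number of points is small.

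Proximal tubule-like cells, the main epithelium of this kidney sample, carried class II pathway RNA at 231 CPM in CA3 and 169 CPM in vehicle, from 2115 and 1782 UMIs. This was 0.628% of the phagocyte-like level in CA3 and 0.407% in vehicle. The 12 phagocyte markers, which tubule cells should lack, stood at 34.9 CPM in CA3 and 14.2 CPM in vehicle in the same cells, or 0.141% and 0.0657% of their phagocyte-like level. The 7 genes were thus 4.47 times higher in CA3 and 6.19 times higher in vehicle than the level that RNA from phagocytes in marker proportions would give. Of the 12 markers, 0 in CA3 and 1 in vehicle were at 0, and single markers ran from 0.0453% to 0.398% of their phagocyte-like level in CA3 and from 0% to 0.561% in vehicle. With the wider leukocyte panel in place of the phagocyte markers, the same excess was 3.46 in CA3 and 2.70 in vehicle.

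**Figure D3:**
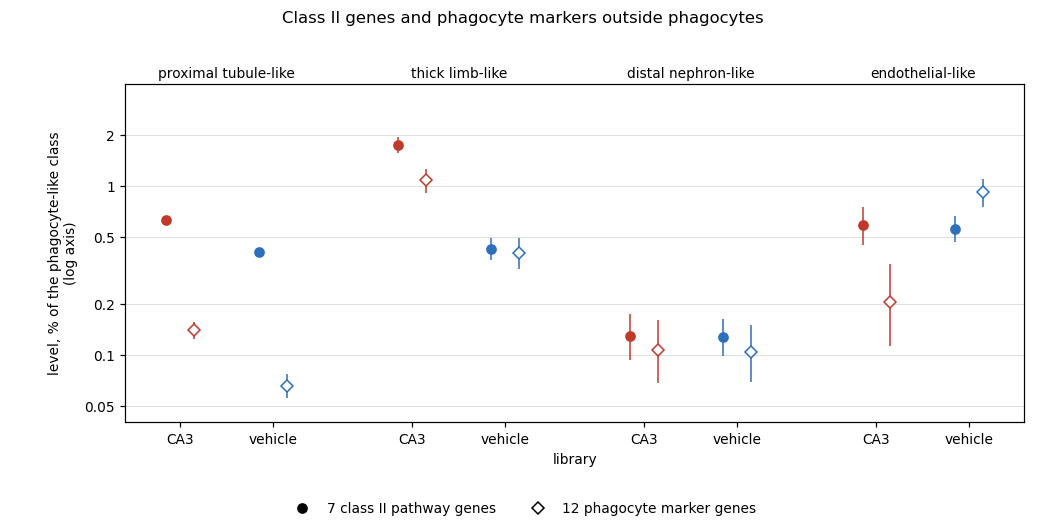
Level of the 7 genes (filled circles) and of 12 phagocyte markers (open diamonds) in classes outside phagocytes, as a percent of their level in phagocyte-like cells (log axis), CA3 left of vehicle, with 95% intervals. In proximal tubule-like cells the genes (0.628% in CA3, 0.407% in vehicle) lie above the markers (0.141% and 0.0657%), while in distal nephron-like cells both lie near 0.1%.

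The proportions of the genes in proximal tubule-like cells also differed from those in phagocytes. H2-Ab1 had 0.890 UMIs per Cd74 UMI in CA3 (0.799 to 0.992) and 0.920 in vehicle (0.817 to 1.04), intervals that lie above those of phagocyte-like and B cell-like cells. H2-DMb1 had 0.277 UMIs per Cd74 UMI in CA3 (0.236 to 0.325) and 0.419 in vehicle (0.359 to 0.487), against 0.0300 and 0.0251 in phagocyte-like cells. A high H2-DMb1 ratio was not particular to this class. From fewer UMIs, it was 0.818 in CA3 and 0.739 in vehicle in distal nephron-like cells, and 1 and 0.667 in intercalated-like cells. Thick ascending limb-like cells had 0.0422 in CA3 and 0.308 in vehicle. By itself H2-DMb1 stood at 4.83% of its phagocyte-like level in CA3 and 5.53% in vehicle, and in distal nephron-like cells at 2.32% and 3.26%, where Cd74 stood at 0.0850% and 0.111%. Its near copy H2-DMb2 had 6 UMIs in CA3 and 7 in vehicle in proximal tubule-like cells, 0.655 and 0.662 CPM.

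**Figure D4:**
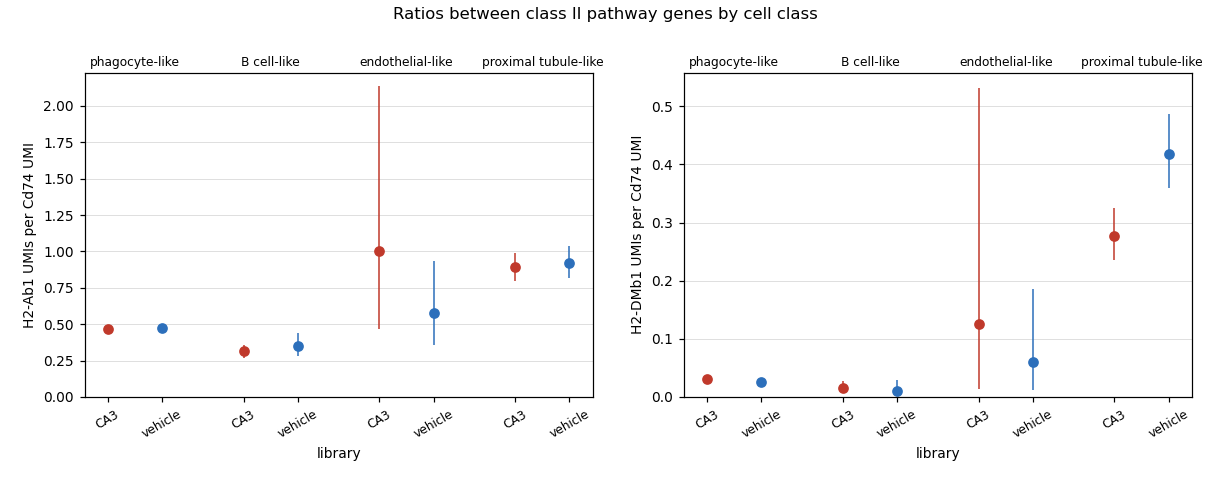
UMIs of H2-Ab1 (left) and H2-DMb1 (right) per UMI of Cd74 by class, CA3 left of vehicle, with 95% intervals, on axes that start at 0. Proximal tubule-like cells (H2-Ab1 0.890 in CA3 and 0.920 in vehicle, H2-DMb1 0.277 and 0.419) lie above phagocyte-like cells in both ratios. The other tubule classes are not drawn.

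Between the libraries, the ratios of Cd74 and the 3 chain genes lay above 1 in proximal tubule-like cells with intervals above 1, and those of the peptide exchange genes had intervals that included 1. Cd74 was at 78.7 CPM in CA3 and 55.3 CPM in vehicle, a ratio of 1.42 (1.27 to 1.59), with UMIs in 264 of 1156 and 211 of 1429 cells. H2-Eb1 had 26.8 CPM in CA3 and 14.6 CPM in vehicle (1.84, 1.496 to 2.26), and H2-Aa had 20.3 and 12.3 CPM (1.65, 1.31 to 2.08). H2-Ab1 had 70.1 and 50.9 CPM (1.38, 1.23 to 1.55). H2-Eb1 and H2-Aa, 2 of the 7, passed 1.5 times higher, where 3.60% of 11741 genes measured in this class did so, and none passed it lower, where 3.99% did. H2-DMa had 11.2 CPM in CA3 and 10.4 CPM in vehicle (1.08, 0.818 to 1.43), and H2-DMb1 had 21.8 and 23.2 CPM (0.943, 0.778 to 1.14). Ciita was counted 18 times in CA3 and 20 times in vehicle, 1.97 and 1.89 CPM, so its ratio of 1.04 has an interval from 0.518 to 2.07. The median log2 ratio was 0.46 over the 7 genes and 0.01 over all genes.

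Markers of phagocytes moved with that difference, since they stood at 34.9 CPM in CA3 and 14.2 CPM in vehicle in these cells. A UMI of the leukocyte panel was found in 349 of 1156 CA3 cells and in 209 of 1429 vehicle cells. In cells with no panel UMI, 807 in CA3 and 1220 in vehicle, the sum was 228 CPM in CA3 and 148 CPM in vehicle and its ratio was 1.54 (1.42 to 1.66), against 1.37 (1.29 to 1.46) in all cells. There the ratio of Cd74 was 1.79 (1.55 to 2.06), that of H2-Eb1 2.06 (1.59 to 2.68), that of H2-Aa 1.66 (1.27 to 2.19) and that of H2-Ab1 1.47 (1.28 to 1.69). H2-DMb1 was at 0.995 (0.788 to 1.25), and Ciita, with 16 UMIs in CA3 and 14 in vehicle, at 1.64 (0.752 to 3.64). Of the 7 genes, 4 were then past 1.5 times, Cd74, H2-Aa, H2-Eb1 and, with an interval that included 1, Ciita. The share of all genes past 1.5 times was not counted in these cells, so this count has no background beside it. A class II pathway UMI was present in 50.8% of the cells with no panel UMI in CA3 and 39.5% in vehicle, against 53.0% and 49.3% of the cells with one.

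Detection was compared at equal depth, with each cell thinned to 2000 UMIs. A class II pathway UMI was then found in 26.8% of proximal tubule-like cells in CA3 (24.3 to 29.5) and in 19.5% in vehicle (17.5 to 21.7), against 51.5% and 40.9% without thinning, and 3 CA3 cells were too shallow to enter. T or NK cell-like cells, which in mice do not make class II molecules, gave 22.9% in CA3 (14.95 to 32.6) and 7.84% in vehicle (2.18 to 18.9). Those intervals overlap with the proximal tubule-like ones in both libraries, so this measure did not separate detection there from the T or NK cell-like share. Overlap of intervals does not show that shares are equal, and the shares were not tested. At 2 or more UMIs the shares were 9.63% in CA3 and 5.11% in vehicle for proximal tubule-like cells, and 3.13% in CA3 and 0% in vehicle for T or NK cell-like cells. H2-Ab1 alone was found in 11.3% of proximal tubule-like cells in CA3 (9.51 to 13.2) and 8.12% in vehicle (6.75 to 9.66), against 4.17% (1.15 to 10.3) and 1.96% (0.0496 to 10.4) of T or NK cell-like cells. Distal nephron-like cells gave 13.04% in CA3 (6.14 to 23.3) and 8.33% in vehicle (3.42 to 16.4), below the proximal tubule-like intervals. Median depth before thinning was 7906 UMIs in CA3 and 7210 in vehicle for proximal tubule-like cells, 6082.5 and 5235 for T or NK cell-like cells, and 11739 and 13873 for distal nephron-like cells.

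The class II pathway RNA was spread over all 10 proximal tubule-like clusters. It ran from 78.7 to 588 CPM in CA3 and from 90.8 to 303 CPM in vehicle, and its ratio of CA3 to vehicle was above 1 in 8 of 10 clusters, with 6 past 1.5 times higher and 1 lower. The cluster with the highest level, cluster 3, had 588 CPM in CA3 and 303 CPM in vehicle, a ratio of 1.94 (1.65 to 2.29). Cluster 9 had 421 and 263 CPM, and cluster 5 had 286 and 178 CPM. Cluster 7 went the other way, with 78.7 CPM in CA3 and 289 CPM in vehicle, and 2 vehicle cells in it held 102 and 58 of the UMIs together with 76 leukocyte panel UMIs each. Without cells that had a panel UMI, its ratio was 2.06 (1.13 to 3.80). The ratio was then above 1 in all 10 clusters, but the interval lay above 1 in 7 and the ratio passed 1.5 times in 5. Intervals that included 1 were those of cluster 4 (1.11, 0.807 to 1.52), cluster 6 (1.18, 0.877 to 1.59) and cluster 15 (1.14, 0.514 to 2.35).

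**Figure D5:**
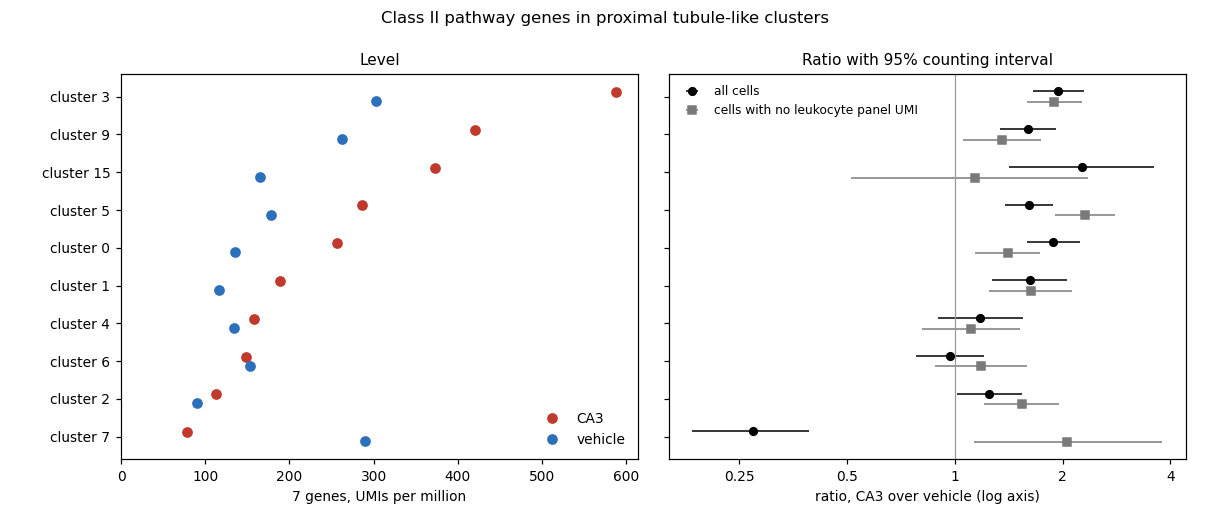
Left, level of the 7 genes (CPM) in each proximal tubule-like cluster, CA3 and vehicle; right, ratio of CA3 to vehicle (log axis) with 95% counting intervals, for all cells (circles) and for cells with no leukocyte panel UMI (squares). In all cells 8 of 10 clusters lie above 1, and without panel cells 10 of 10, of which 7 have intervals above 1.

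Most proximal tubule-like cells with class II pathway RNA held few copies, and a small number held many. Cells with 10 or more UMIs of the 7 genes numbered 41 in CA3 and 28 in vehicle, of which 27 and 19 had no leukocyte panel UMI. The highest counts in cells with 0 panel UMIs and 0 phagocyte marker UMIs were 54 in CA3 and 53 in vehicle. The limit of 10 was chosen after the counts were seen, and 31 CA3 and 15 vehicle cells lay between 8 and 12. The 27 CA3 and 19 vehicle cells with 10 or more UMIs and no panel UMI, called high cells here, were set beside proximal tubule-like cells with none of the 7 genes, without a test, for genes chosen after their values were seen. B2m, the light chain of MHC class I, was at 696 CPM in high cells and 259 CPM in cells with none in CA3, and at 822 and 271 CPM in vehicle. H2-K1, a class I heavy chain, was at 308 and 78.3 CPM in CA3 and at 329 and 78.5 CPM in vehicle. The adhesion molecule Vcam1, a marker of injured tubule, was at 103 (71.2 to 144) and 18.9 CPM in CA3. In vehicle it was at 249 (188 to 323) and 18.6 CPM. Havcr1 (kidney injury molecule 1), another such marker, was at 24.2 (10.4 to 47.7) and 0.788 CPM in CA3. In vehicle it was at 0 (0 to 16.4) and 0.360 CPM, so its intervals in high cells overlap between the libraries. The proximal tubule transporter Slc34a1 was at 4333 and 4632 CPM in CA3 and at 4687 and 4470 CPM in vehicle. The endocytic receptor Lrp2 was lower in high cells, at 2153 (1998 to 2317) and 2474 (2425 to 2525) CPM in CA3 and at 2386 (2188 to 2596) and 2745 (2701 to 2789) CPM in vehicle. High cells were also deeper, with median totals of 14563 against 6850 UMIs in CA3 and 11317 against 6514 UMIs in vehicle. Ciita had 3 UMIs in the high cells in CA3 and 0 in vehicle, and 3 and 4 UMIs in all cells with 10 or more UMIs. With panel cells included, vehicle cells with 10 or more UMIs had 174 CPM of Vcam1, 988 CPM of B2m and a median of 14294.5 UMIs.

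Endothelial-like cells held class II pathway RNA far below the phagocyte-like level, and the interval of its ratio between the libraries included 1. The sum was 216 CPM in CA3 from 59 UMIs and 231 CPM in vehicle from 129 UMIs, a ratio of 0.936 (0.676 to 1.28). In proximal tubule-like cells the sum was of the same order, 231 CPM in CA3 and 169 CPM in vehicle. Cd74 had 16 UMIs in CA3 and 50 in vehicle, H2-Ab1 16 and 29, H2-Aa 9 and 25, and H2-Eb1 12 and 18. Of the 4 genes with enough UMIs, none passed 1.5 times higher and 1, Cd74, passed it lower, where 13.2% of 6875 genes were higher and 19.2% lower, 32.4% in all. In the whole cluster the same count was 0 higher and 1 lower of 4, where 12.7% of genes were higher and 19.0% lower, 31.7% in all. A single vehicle cell held 100 of the 129 UMIs with 64 phagocyte marker UMIs and 60 panel UMIs, and a single CA3 cell held 23 of the 59. In cells with no panel UMI the sum was 145 CPM from 26 UMIs in CA3 and 80.2 CPM from 19 UMIs in vehicle (1.81, 0.963 to 3.46), and the ratio of Cd74 was 4.62 from 7 and 2 UMIs. Measured against phagocyte markers, the 7 genes were at 2.85 times the expected level in CA3 and at 0.605 times in vehicle. At equal depth a class II pathway UMI was found in 23.7% of cells in CA3 (11.4 to 40.2) and 15.4% in vehicle (5.86 to 30.5), with intervals that overlap those of T or NK cell-like cells. Median depth was 6090 UMIs in CA3 and 8373 in vehicle. The ratio of the sum was 4.52 with a stricter cell filter and 2.60 without the 3 highest cells of each library.

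The cells of the endothelial-like cluster with under 10 endothelial marker UMIs, 4 in CA3 and 10 in vehicle, carried much more, 5529.5 CPM from 112 UMIs in CA3 and 2636 CPM from 328 UMIs in vehicle. Of 4 genes with enough UMIs, 3 were higher in CA3 and none lower, where 26.6% of 1338 genes were higher and 35.4% lower, 62.0% in all. Their median proximal tubule marker count was 47.5 UMIs in CA3 and 22.5 in vehicle. A single vehicle cell of 51490 UMIs held 279 of the class II pathway UMIs, among them 146 of Cd74 and 11 of Ciita. That cell had 0 leukocyte panel UMIs, 38 proximal tubule marker UMIs, 198 Vcam1 UMIs, 151 UMIs of the chemokine Cxcl10 and 158 each of the interferon-induced GTPases Gbp2 and Iigp1. Ciita had 1 UMI in the CA3 cells of the whole cluster and 12 in the vehicle cells, 11 of them in this cell. Its Vcam1 count, like the other counts in it, was looked up after its class II level was seen. Over the whole cluster, proximal tubule markers stood at 3677 CPM in CA3 and 2725 CPM in vehicle. In proximal tubule-like cells they stood at 26766.5 and 27691 CPM. Markers of mesenchymal cells had 82 UMIs in the CA3 cells of the whole cluster and 563 in the vehicle cells. They reached 3 or more UMIs in 1 CA3 cell and 11 vehicle cells, and which part of the cluster held those cells was not tested.

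T or NK cell-like cells had 191 CPM in CA3 from 116 UMIs and 50.3 CPM in vehicle from 14 UMIs, a ratio of 3.81 (2.18 to 7.18). Both genes with enough UMIs, Cd74 with 48 and 3 UMIs and H2-Eb1 with 23 and 4, were higher in CA3, where 13.7% of 5672 genes were. A pair of CA3 cells held 44 and 16 of the 116 UMIs, and with each library clustered on its own the ratio turned to 0.0895. Class II pathway UMIs were found in 34 of 96 CA3 cells and 11 of 51 vehicle cells. Phagocyte markers stood at 549 CPM in CA3 and 391 CPM in vehicle in this class, and their part in the difference was not tested. The 7 genes were at 0.235 times the level those markers would give in CA3 and at 0.0669 times in vehicle. Of the 12 markers, Tyrobp and Fcer1g are also made by NK cells, so in this class the markers do not stand for phagocyte RNA alone. The leukocyte panel includes T and NK cell genes, so cells of this class were not split by it.

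Thick ascending limb-like cells had 648 CPM in CA3 from 357 UMIs and 177 CPM in vehicle from 186 UMIs, a ratio of 3.66 (3.05 to 4.39). Of 5 genes with enough UMIs, 4 were higher in CA3, where 9.68% of 8565 genes were. All cells with 10 or more UMIs, 5 in CA3 and 3 in vehicle, also carried leukocyte panel UMIs, and the highest CA3 cell held 176 with 110 panel UMIs and 93 phagocyte marker UMIs. Cells with no panel UMI had 36.9 CPM in CA3 from 3 UMIs in 16 cells and 49.5 CPM in vehicle from 14 UMIs in 35 cells, a ratio of 0.746 (0.137 to 2.67). The 7 genes were at 1.63 times the level given by the phagocyte markers in CA3 and at 1.06 times in vehicle. Distal nephron-like cells had 47.7 CPM in CA3 from 41 UMIs and 53.1 CPM in vehicle from 66 UMIs, a ratio of 0.899 (0.593 to 1.35) that was 1.81 with the stricter cell filter and 1.67 with thinned cells. Neither gene with enough UMIs, Cd74 and H2-DMb1, passed 1.5 times, where 17.5% of genes did so in either direction and 9.66% were lower in CA3. There the excess over the phagocyte markers was 1.20 in CA3 and 1.23 in vehicle. Intercalated-like cells had 120.4 CPM from 33 UMIs in CA3 and 34.3 CPM from 8 UMIs in vehicle, a ratio of 3.51 (1.59 to 8.80) that turned to 0.930 with the stricter cell filter. A single CA3 cell held 15 of the 33 UMIs. T cell markers had 33 UMIs in CA3 and 0 in vehicle in this class, and their part in the difference was not tested. The 7 genes were at 2.48 times the level given by the phagocyte markers in CA3 and at 0.260 times in vehicle. Podocyte-like cells had 1 UMI in CA3 and 3 in vehicle.

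Genes that work with class II molecules were divided between the cell types in different ways. Cathepsin S, which trims the invariant chain, stood at 2442 CPM in CA3 and 2988 CPM in vehicle in phagocyte-like cells, and at 2.08 and 1.42 CPM in proximal tubule-like cells from 19 and 15 UMIs. The lysosomal proteases Ctsl and Lgmn went the other way. In proximal tubule-like cells Ctsl was at 729.8 CPM in CA3 and 775 CPM in vehicle and Lgmn at 703 and 620.1 CPM. In phagocyte-like cells Ctsl was at 241 and 214 CPM and Lgmn at 408 and 319.9 CPM. The costimulator Cd86 was at 165 CPM in CA3 and 155 CPM in vehicle in phagocyte-like cells and had 0 and 1 UMIs in proximal tubule-like cells, where Cd40 had none and Cd80 had 0 and 2. March1, a ubiquitin ligase that removes class II from the surface, was lower in CA3 in both classes, at 102 and 162 CPM (0.631, 0.413 to 0.962) in phagocyte-like cells and with 24 and 48 UMIs (0.577, 0.338 to 0.961) in proximal tubule-like cells.

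Of the list of class II partners and loading genes, 10 of the 13 found in the files were measured in phagocyte-like cells, with 0 higher and 2 lower in CA3, where 13.3% of all genes were higher and 12.8% lower. In proximal tubule-like cells 5 were measured, with 0 higher and 1 lower, where 3.60% of all genes were higher and 3.99% lower. Of the RFX, CREB and NF-Y genes that bind the boxes, 7 of 7 were measured in proximal tubule-like cells with 0 past 1.5 times, where 7.59% of all genes passed in either direction, and 4 in phagocyte-like cells with 0 higher and 2 lower. The MHC class I presentation list had 1 higher and 0 lower of 19 measured in proximal tubule-like cells, 1 and 2 of 20 in phagocyte-like cells, 5 and 0 of 21 in T or NK cell-like cells, and 1 and 0 of 20 in endothelial-like cells. Over all genes, 13.7% were higher and 12% lower in T or NK cell-like cells, and 13.2% and 19.2% in endothelial-like cells, beside the shares given above for the other classes. Psmb8, an immunoproteasome subunit, was the 1 higher in proximal tubule-like cells, with 67 UMIs in CA3 and 49 in vehicle (1.58, 1.08 to 2.33). In T or NK cell-like cells Tap1, a peptide transporter, had 81 and 17 UMIs (2.19, 1.29 to 3.94).

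The interferon gamma response list had 2 higher and 0 lower of 13 measured in proximal tubule-like cells, 2 and 4 of 13 in phagocyte-like cells, 4 and 2 of 16 in T or NK cell-like cells, and 4 and 5 of 14 in endothelial-like cells. The shares of all genes higher and lower were 3.60% and 3.99%, 13.3% and 12.8%, 13.7% and 12%, and 13.2% and 19.2% in the same order of classes. Several of these differences lay in few cells. Iigp1, an interferon-induced GTPase, had 149 UMIs in CA3 and 24 in vehicle in proximal tubule-like cells (7.17, 4.64 to 11.5), in 22 and 6 cells, and its ratio was 13.7 without the 3 highest cells of each library. In phagocyte-like cells the chemokine Cxcl9 had 1 UMI in CA3 and 162 in vehicle, where they lay in 3 cells. In T or NK cell-like cells Cxcl10 had 49 UMIs in CA3, of which 47 lay in 1 cell, and 1 in vehicle. Irf1, a transcription factor induced by interferon, was higher in CA3 phagocyte-like cells, with 42 and 14 UMIs (2.24, 1.20 to 4.44) in 18 and 7 cells. The median log2 ratio in proximal tubule-like cells was 0.14 for the RFX, CREB and NF-Y list, -0.01 for the class I list and 0.05 for the interferon gamma list, beside 0.01 over all genes. In phagocyte-like cells the same medians were -0.48, 0.06 and -0.24, beside -0.03.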

How the data were processed

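Single-cell suspensions of whole kidney were run as 10x Genomics 3′ libraries, 1 per group, per the labels' protocols. Cell Ranger 3.0.1 and mm10 are named in the submitters' processing notes. The deposited matrices hold UMI counts per gene and cell barcode, not normalized by the authors. Barcodes under 500 genes or over 50% mitochondrial UMIs were removed, that is 230 CA3 and 200 vehicle barcodes, and Scrublet called 3 and 1 doublets, which were removed. Total UMIs per barcode ran from 3506 to 115815 in CA3 and from 3784 to 112355 in vehicle. Both libraries were clustered together with scanpy 1.11.5 and leidenalg 0.10.2 (2000 variable genes, 30 components, 15 neighbours, resolution 1). The members and the other pathway genes, 68 listed genes in all, were left out, and clusters were named from marker lists. UMIs were summed per class and library. Ratios have exact conditional binomial intervals, shares Clopper-Pearson intervals and levels Poisson intervals, which cover counting error only. Gene ratios within a class are treated as 2 Poisson counts. A gene counts as measured in a class at 20 or more UMIs in both libraries together, and a count of 0 allows up to 3 UMIs. The scripts were tested on simulated data.

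The 7 genes were named in every class, up to 4 genes of each pathway list per class by largest ratio, and the 8 genes most like Cd74 on log2(CPM + 10). The members, lists and marker sets were chosen with earlier results of these data known. Alternatives were the cell filter, clustering with these genes, resolution, clustering each library alone, the total, thinning, leaving out the 3 highest cells, cells without a leukocyte panel UMI and cells taken by markers.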

Additional observations from a re-analysis of the deposited data

Results flagged for a closer look

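The sum of the 7 genes differed between CA3 and vehicle in a different direction or size across cell classes, as read from counting intervals that exclude 1. With 1 library per group the differences between classes were not tested. The ratio of CA3 to vehicle was 0.887 in phagocyte-like cells, 3.81 in T or NK cell-like cells, 1.37 in proximal tubule-like cells, 3.66 in thick ascending limb-like cells and 3.51 in intercalated-like cells. The values in 3 of these classes lay in few cells. Of the CA3 UMIs, 1 cell held 176 of 357 in thick ascending limb-like, 44 of 116 in T or NK cell-like and 15 of 33 in intercalated-like cells. The phagocyte-like ratio was above 1 in 2 of 11 other settings, with 1.26 for cells taken by markers. The T or NK cell-like ratio turned to 0.0895 with each library clustered alone. The thick ascending limb-like ratio turned to 0.746 without panel cells, and the intercalated-like ratio to 0.930 with the stricter cell filter. The proximal tubule-like ratio stayed above 1 in all 11.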

How the results depend on the processing

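No paired analysis was possible because each group is 1 library. Under the alternatives, 52 ratios of the summed genes stayed within the counting interval, 35 moved past it and 3 reversed, and the cause was not tested. Reversed was kept for reported ratios past 1.5 times, so smaller ratios that crossed 1 are among the other counts. The ratio of the sum was above 1 in 2 of 11 settings for phagocyte-like cells, reported at 0.887. It was above 1 in 6 of 10 for endothelial-like cells (0.936) and 5 of 10 for their whole cluster (0.872). The same held in 4 of 10 for distal nephron-like cells (0.899) and 2 of 8 for B cell-like cells (0.9998). The 2 genes past 1.5 times in proximal tubule-like cells were 4 with thinned cells and without panel cells, and 1 with each library clustered alone and without the cluster with the highest CA3 level; of all such counts by class, 31 moved and 59 did not. The proximal tubule-like ratio stayed above 1 in all 11 settings run: 1.503 without the cell filter, 1.49 at resolution 0.5 and at resolution 2, 1.67 with cells thinned to 2000 UMIs and 1.54 without cells with a panel UMI. The phagocyte-like ratio was 1.02 without the filter, 0.997 at resolution 0.5, 0.848 without the 3 highest cells, 1.26 by markers and 0.993 without cells with neutrophil UMIs. The B cell-like ratio was 0.813 with the strict filter (1000 genes, 25% mitochondrial), 3.07 at resolution 2, 0.882 thinned, 0.818 without the 3 highest cells and 3.59 by markers. With each library clustered alone, T or NK cell-like cells gave 0.0895 for the sum, 0.0699 for Cd74 and 0.138 for H2-Eb1.

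The whole endothelial-like cluster gave 1.14 unfiltered, 4.56 strict, 0.694 clustered with these genes, 2.52 alone, 1.04 thinned, 1.53 without the 3 highest cells and 0.372 without panel cells, and its H2-Aa ratio reversed to 3.24 strict, 1.96 alone and 1.67 without the 3 highest cells. Cells with 10 marker UMIs gave 1.80 unfiltered and clustered with these genes, 4.52 strict, 1.46 alone, 0.616 thinned, 2.60 without the 3 highest cells and 1.81 without panel cells. Their Cd74 ratio reversed to 1.68 unfiltered and clustered with these genes, 5.35 strict, 1.31 alone, 12.8 without the 3 highest cells and 4.62 without panel cells. Thick ascending limb-like cells gave 1.87 at resolution 0.5, 1.37 thinned, 2.55 without the 3 highest cells, 5.76 without cells with endothelial UMIs and, without panel cells, 0.746 for the sum, 0.696 for Cd74 and 0 for H2-Ab1. Distal nephron-like cells gave 1.81 strict and 1.67 thinned, and intercalated-like cells 0.930 strict. Phagocyte-like Gbp2 reversed to 1.04 without the 3 highest cells.

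Under the strict filter, levels that moved were 29859.6 CPM in vehicle B cell-like cells, 256 in CA3 and 56.0 in vehicle for the endothelial-like cluster, 56.5 in vehicle endothelial-like cells, 220.2 in CA3 proximal tubule-like cells, 827 in CA3 thick ascending limb-like cells, 21.7 in vehicle distal nephron-like cells and 50.6 in CA3 intercalated-like cells. Shares of cells at 1000 UMIs were 18.2% in CA3 and 11.8% in vehicle for proximal tubule-like and 8.33% in CA3 T or NK cell-like cells. At 2 or more UMIs they were 9.63% and 5.11% for proximal tubule-like, 3.13% and 0% for T or NK cell-like, 1.45% and 1.19% for distal nephron-like and 10.5% in CA3 endothelial-like cells. Against the leukocyte panel, the excess was 3.46 in CA3 and 2.70 in vehicle for proximal tubule-like, 1.35 and 0.666 for thick ascending limb-like and 0.454 and 0.399 for distal nephron-like cells. RNA of T and NK cells also counts in the panel, so these values can be lower than those against phagocyte markers. Depth limits Ciita most, with 18 UMIs in CA3 and 20 in vehicle over all proximal tubule-like cells. The split at 10 endothelial marker UMIs and the settings without neutrophil, endothelial or highest-cluster cells, and without the 3 highest cells for pathway genes, were chosen after seeing the data.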
